A study of Rattus norvegicus with 16 samples.

Results

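The insulin-like growth factor (IGF) ligands, their clearance receptor and their binding proteins were described here as 9 genes of cultured rat aortic smooth muscle: Igf1, Igf2, Igf2r, Igfbp2, Igfbp3, Igfbp4, Igfbp5, Igfbp6 and Igfbp7. They were taken by gene symbol from a table of 32883 genes, and all 9 were found. A mean of at least 1 FPKM (fragments per kilobase, a read count scaled by gene length and library size) over the 6 input libraries was reached by 8 of the 9 and by 13450 genes in all. Igf2 lay under that limit and was described without a test.

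Primary vascular smooth muscle cells from rat aorta grew in DMEM/F12 with 20% fetal bovine serum and carried an adenovirus for 48 h. The control group (3 libraries, genotype labelled wild type) received a control virus, so that virus exposure was shared by both groups. The knockdown group (3 libraries) received a virus expressing a short hairpin RNA against Nat10. Both groups were also profiled for N4-acetylcytidine (ac4C) by immunoprecipitating RNA fragments of 100 to 200 nt, 3 libraries each. A further assay pulled down NAT10 with its RNA (NAT10 RIP) in 3 libraries of cells labelled wild type without treatment. The replicates are called biological repeats, but no source used here ties them to separate animals, so the p-values reflect only the spread among these libraries, and that may be technical. In bulk RNA of this kind, fewer cells of a type and less RNA per cell cannot be told apart.

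IGF1 and IGF2 are secreted peptides that act through the tyrosine kinase receptor IGF1R, which signals through IRS adaptors to PI3K and AKT. In vascular smooth muscle this pathway is known for survival, growth and migration. IGF2R has no kinase: it takes IGF2 to lysosomes and sorts lysosomal enzymes that carry mannose 6-phosphate. The binding proteins hold IGFs outside the cell, prolong their life, and block or deliver them, while proteases such as the pappalysins cleave some binding proteins and free the ligand. NAT10 is the acetyltransferase that places ac4C on RNA.

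The upstream promoter windows of 3 binding proteins are shown because these genes carried the highest level (Igfbp7), the largest difference between groups on the log2(FPKM + 1) scale with all libraries (Igfbp4) and the widest spread between libraries (Igfbp5). Each run is the 150 bases before the RefSeq start of the gene in build GRCr8, written 5′ to 3′ on the gene's strand. Capitals mark a TATAAA or a GGGCGG, searched on both strands, so that the latter also appears as CCGCCC. The windows are chr10:84491321-84491470 (+) for Igfbp4, chr9:81914188-81914337 (−) for Igfbp5 and chr14:31091586-31091735 (+) for Igfbp7.
Igfbp4: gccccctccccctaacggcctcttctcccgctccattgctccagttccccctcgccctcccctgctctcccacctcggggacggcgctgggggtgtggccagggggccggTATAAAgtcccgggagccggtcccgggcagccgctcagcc
Igfbp5: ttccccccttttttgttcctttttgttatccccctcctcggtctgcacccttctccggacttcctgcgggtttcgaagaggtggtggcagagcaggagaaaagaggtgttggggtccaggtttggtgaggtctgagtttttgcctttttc
Igfbp7: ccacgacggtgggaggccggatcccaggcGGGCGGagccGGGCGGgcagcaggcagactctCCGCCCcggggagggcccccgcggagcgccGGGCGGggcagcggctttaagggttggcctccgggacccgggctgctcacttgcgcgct
The Igfbp4 window held 1 TATAAA, starting 40 bases upstream, and no GGGCGG. The Igfbp7 window held 4 GGGCGG, from 121 to 59 bases upstream, and no TATAAA. The Igfbp5 window held neither. Among all 33469 promoter windows in the table, 8.0% held a TATAAA and 26.0% a GGGCGG. The GC content was 73.3% for Igfbp4, 52.7% for Igfbp5 and 78.7% for Igfbp7, against a median of 52.7% over all windows. All 9 genes had a window in that table, and a match describes letters only.

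Facts of the whole series bear on every value that follows. The libraries held between 6417941 and 12065991 assigned fragments, recovered from the deposited values. Nat10, the target of the hairpin, measured 7.69, 9.22 and 9.95 FPKM in control libraries 1 to 3 and 4.38, 3.68 and 4.58 FPKM in knockdown libraries 1 to 3. Its difference was -0.93 (SE 0.19) on the log2(FPKM + 1) scale, with a limma adjusted p of 0.227, so the target was lower in every knockdown library without passing the adjustment. In the same limma fit, 0 of 13450 genes passed an adjusted p of 0.05 in either direction (0% lower, 0% higher), and the lowest adjusted p was 0.155. Contractile smooth muscle markers summed to 5041 to 7118 FPKM in controls and 928 to 3732 FPKM in knockdown libraries. Of these, 9 of 10 had a mean of at least 1, and Des, at 0.21, did not. Endothelial markers, 7 of 8 matched by symbol, summed to at most 1.00 FPKM in any library, with Emcn and Cldn5 at 0. Leukocyte markers summed to at most 12.02 FPKM, in knockdown library 2, where Cd68 gave 9.67 FPKM. Hepatocyte markers summed to at most 4.69 FPKM, in knockdown library 1, where Apoa1 gave 4.15 FPKM. Cd3e and Alb were at 0 throughout. All 8 adventitial fibroblast markers were detected, at 319 to 344 FPKM in controls and 202 to 279 FPKM in knockdown libraries; the part of these shifts in the IGF results was not tested. Control library 1 and knockdown library 2 stood apart from the rest of their groups together: across genes, their deviations from their group means correlated at r = 0.41, a description over genes that share 2 libraries.

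In control cells the system was dominated by Igfbp7 and Igf2r, with little ligand RNA. Igfbp7 averaged 698 ± 163 FPKM (SD, n = 3), Igf2r 107 ± 43.7 FPKM and Igfbp6 49.6 ± 8.48 FPKM. Igfbp4 followed at 37.0 ± 16.3 FPKM, then Igfbp5 at 14.5 ± 11.8, Igfbp2 at 12.03 ± 3.70 and Igfbp3 at 4.94 ± 3.93 FPKM. The ligands closed the order, Igf1 at 2.04 ± 1.67 and Igf2 at 0.363 ± 0.514 FPKM. These levels are per length and can be compared between genes. The control ranges of neighbours were apart for Igfbp7 over Igf2r, Igf2r over Igfbp6 and Igfbp2 over Igfbp3, and overlapped for the other neighbours. Igfbp5 stood above Igfbp2 in 3 of 6 libraries and Igf1 above Igf2 in 4 of 6, while the other neighbours kept their order in all 6.

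**Figure D1:**
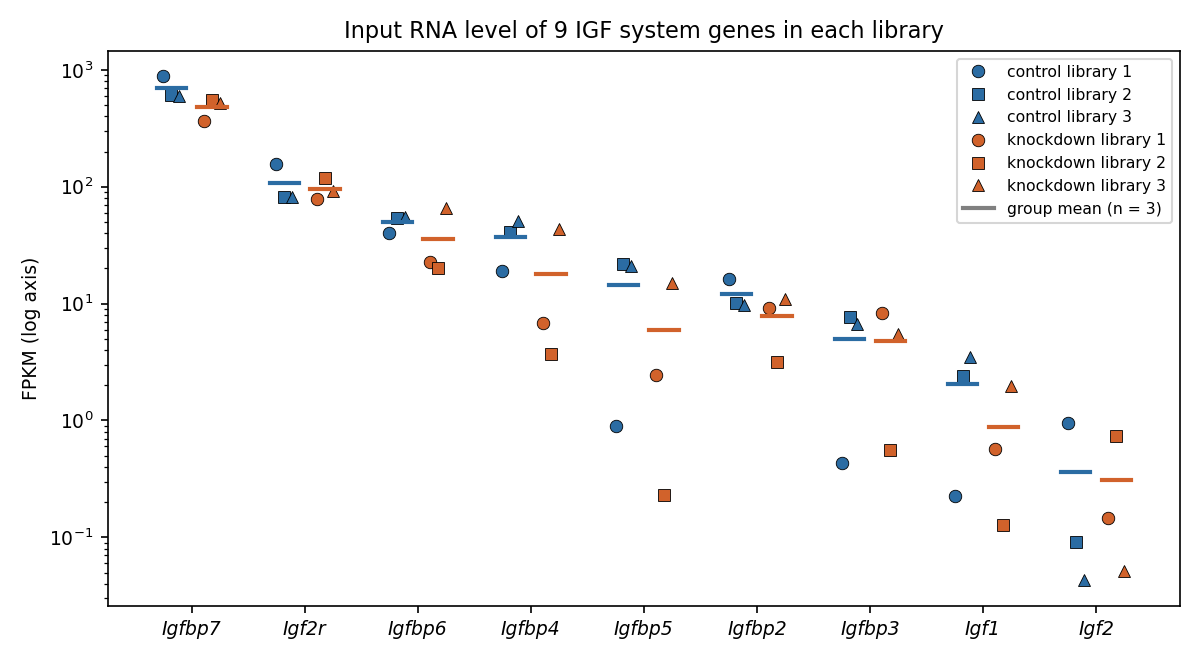
FPKM of the 9 genes in each input library on a log axis, with 3 control and 3 knockdown points per gene and a bar at each group mean. Igfbp7 lies at the top between 364 and 886 FPKM in all 6 libraries, and Igf2 at the bottom with no value above 0.955 FPKM.

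The ligand transcripts were near the limit of detection. Igf1, the main circulating ligand and also a local product of mesenchymal cells, measured 0.226, 2.39 and 3.51 FPKM in controls and 0.568, 0.127 and 1.96 FPKM in knockdown libraries. These values rest on 5, 36 and 56 fragments and on 8, 2 and 26 fragments. Control library 1 and knockdown library 2 were the lowest, and the groups overlapped. The log2 difference was -0.61 (SE 0.59, 95% interval -2.02 to 0.79, limma adjusted p = 0.699). Leaving out control library 1 gave -1.17 and leaving out knockdown library 3 gave -0.999. Removal of control library 3 gave -0.23, and removal of knockdown library 2 gave -0.30. Igf2, the ligand known for fetal growth and for imprinted expression, measured 0.955, 0.0907 and 0.0428 FPKM in controls and 0.145, 0.738 and 0.0514 FPKM in knockdown libraries. Its order was the opposite of that of Igf1: control library 1 was highest and knockdown library 2 next, at 62 and 34 fragments, with 2 to 6 fragments elsewhere. Summed ligand RNA was 1.18, 2.48 and 3.55 FPKM in controls and 0.713, 0.865 and 2.01 FPKM in knockdown libraries.

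Igf2r, the clearance receptor, was abundant, and its groups overlapped. It measured 157, 81.4 and 82.2 FPKM in controls and 77.9, 118 and 91.3 FPKM in knockdown libraries. The same pair of libraries was highest here, control library 1 and then knockdown library 2. Knockdown minus control was -0.11 on the log2 scale (SE 0.30, 95% interval -0.83 to 0.61, limma adjusted p = 0.906). Without control library 1 it took the opposite sign, at 0.21. The kit kept strand, but no source used here says whether counting used it, so antisense RNA at Igf2r and Igf2 cannot be told apart from the sense RNA.

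Igfbp7, a secreted matrix-associated protein that binds IGFs weakly, was the only one of the 9 genes whose groups did not overlap. It measured 886, 612 and 594 FPKM in controls and 364, 553 and 520 FPKM in knockdown libraries. Every knockdown library lay under every control, with control library 1 the highest and knockdown library 1 the lowest. The log2 difference was -0.54 (SE 0.28, 95% interval -1.20 to 0.12), and neither limma (adjusted p = 0.477) nor the exact two-sided permutation test (p = 0.1, the smallest that 3 against 3 can give) placed it under 0.05. Among all tested genes, 10.9% lay wholly lower in the knockdown libraries and 9.63% wholly higher, so 1 of 8 lower and 0 of 8 higher is close to that background. Igfbp7 was also the steadiest of the 8 tested genes, with a residual SD of 0.32 on the log2 scale, at the 49.4th percentile of tested genes. Its difference was -0.35 without control library 1 or knockdown library 1.

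Igfbp4 had the largest difference of the 8 tested genes on the log2(FPKM + 1) scale with all libraries. Igfbp5 was ahead of it at a pseudocount of 0.1 (-1.73 against -1.71), with voom (-1.86 against -1.77), with library quality weights (-2.16 against -2.05), without control library 1 (-2.45 against -1.99) and when knockdown library 2 was removed as well (-1.59 against -1.33). The product of Igfbp4, known mainly as an inhibitor of IGF action, is a substrate of pappalysin-1. Igfbp4 measured 19.1, 41.1 and 50.9 FPKM in controls and 6.84, 3.71 and 43.0 FPKM in knockdown libraries. Knockdown libraries 1 and 2 were the lowest, while knockdown library 3 lay within the control range. Knockdown minus control was -1.58 on the log2 scale (SE 0.81, 95% interval -3.50 to 0.33, limma adjusted p = 0.472). Its size turned on single libraries: it was -2.54 without knockdown library 3 (unadjusted p = 0.00184, limma adjusted p = 0.0959) and -0.92 without knockdown library 2. Over all 15 alternatives the adjusted p ranged from 0.0772 to 0.833.

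Igfbp6, which prefers IGF2 over IGF1, showed the same arrangement of libraries at a smaller size. It measured 39.8, 54.2 and 54.8 FPKM in controls and 22.7, 20.0 and 65.2 FPKM in knockdown libraries. The highest and the lowest values both came from the knockdown group. The log2 difference was -0.64 (SE 0.43, 95% interval -1.66 to 0.38, limma adjusted p = 0.578). Without knockdown library 3 it was -1.16 (unadjusted p = 0.00133, limma adjusted p = 0.0950), and without knockdown library 2 it was -0.34. Igfbp2, a secreted binding protein with an integrin-binding motif, had the same lowest pair of libraries. It measured 16.3, 10.1 and 9.71 FPKM in controls and 9.18, 3.16 and 10.99 FPKM in knockdown libraries, with a log2 difference of -0.67 (SE 0.42, limma adjusted p = 0.549). Without knockdown library 2 the difference was -0.20. Without control library 1 and knockdown library 2 together it was 0.02.

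Igfbp5 and Igfbp3 varied more between replicates than almost any other gene. Igfbp5, a matrix-bound binding protein of smooth muscle and bone, measured 0.904, 21.7 and 21.0 FPKM in controls and 2.45, 0.230 and 15.0 FPKM in knockdown libraries. The highest library was 94.3-fold above the lowest, on 993 and 11 fragments. Control library 1 and all but one of the knockdown libraries were low, so the groups overlapped. The log2 difference was -1.27 (SE 1.22, 95% interval -4.14 to 1.6, limma adjusted p = 0.696), from -2.45 without control library 1 to -0.41 without knockdown library 2. It was -2.26 without knockdown library 3, -0.67 without control library 2 and -0.69 without control library 3. Its residual SD of 1.96 on the log2 scale was at the 99.7th percentile of tested genes. Igfbp3, the main carrier of IGFs in serum, measured 0.433, 7.71 and 6.66 FPKM in controls and 8.29, 0.560 and 5.48 FPKM in knockdown libraries. One library of each group was far below the others, by 19.1-fold between extremes. The log2 difference was -0.01 (SE 0.89, 95% interval -2.10 to 2.08, limma adjusted p = 0.998), and its sign turned under 7 of 15 alternatives, to 0.76 without knockdown library 2.

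**Figure D2:**
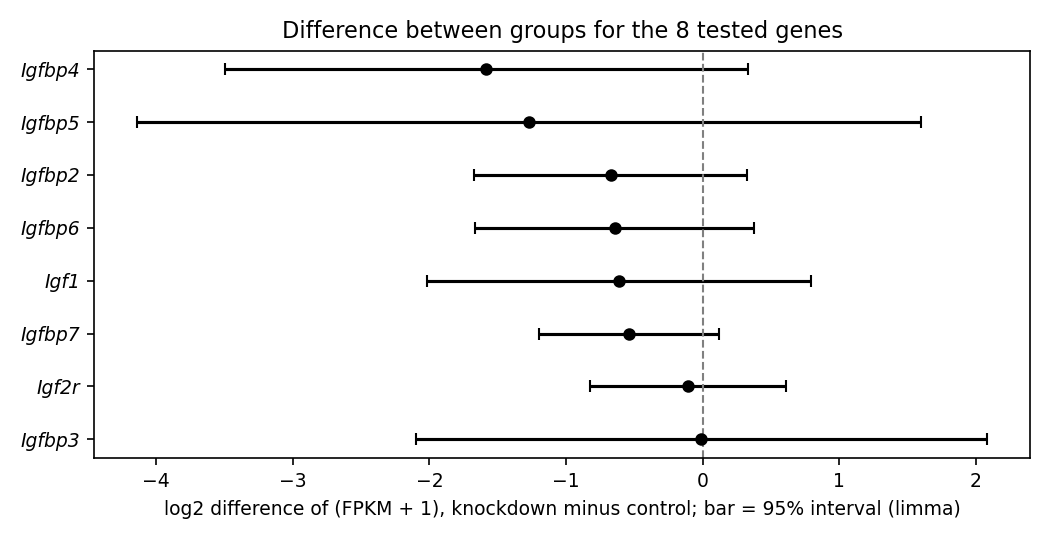
Log2 difference of knockdown minus control on the log2(FPKM + 1) scale for the 8 tested genes, with limma 95% intervals. Every estimate lies under 0, from -1.58 for Igfbp4 to -0.01 for Igfbp3, and every interval includes 0.

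Read as a group, none of the 8 tested genes passed the test, and 0 of 8 reached an unadjusted p of 0.05, where 6.95% of all tested genes did so lower and 5.53% higher. All 8 differences were negative, against 51.4% of all tested genes, with a median of -0.63 against -0.01. Leaving out 1 library moved that median to -0.32 without knockdown library 2 and to -0.98 without knockdown library 3, with 7 or 8 of 8 negative in each such fit. Several of these genes share the libraries that set their values, so they are not 8 separate observations. Control library 1 and knockdown library 2 were the lowest pair for Igf1, Igfbp3 and Igfbp5, that is 3 of 8, against 14.6% of all tested genes. Knockdown libraries 1 and 2 were the lowest pair for Igfbp2, Igfbp4 and Igfbp6. Without control library 1 and knockdown library 2 together, 6 of 8 differences were negative, with a median of -0.48.

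**Figure D3:**
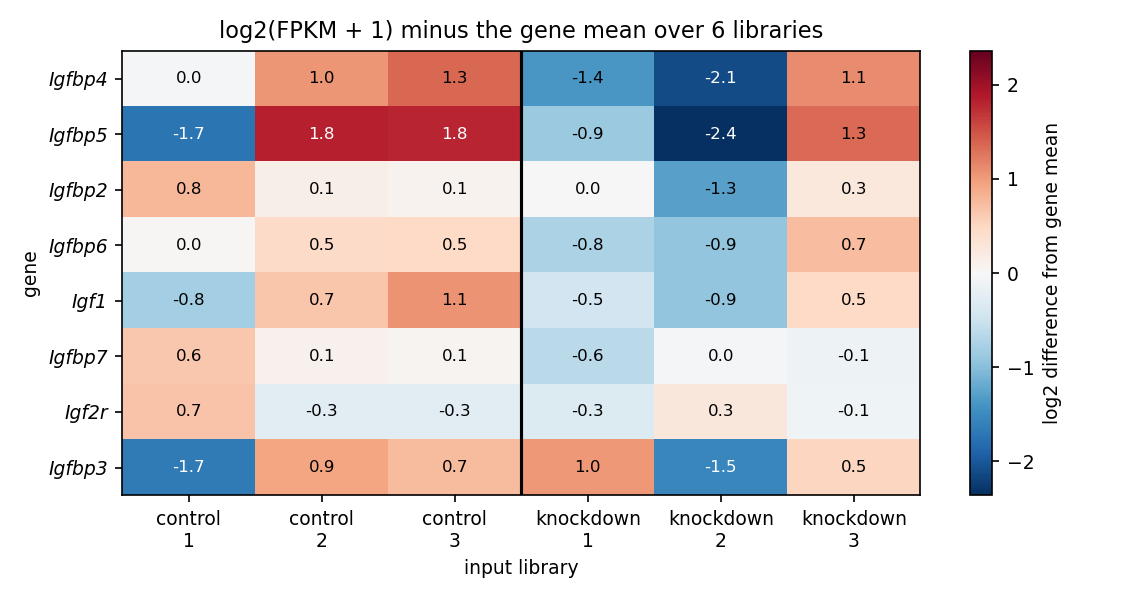
Colour and printed value give log2(FPKM + 1) of the 8 tested genes (rows) in the 6 input libraries (columns), minus the gene's mean over them. Igf1, Igfbp3 and Igfbp5 dip in control library 1 and knockdown library 2, while Igf2r is highest in the same 2 libraries.

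The make-up of the binding protein pool overlapped between groups. Igfbp7 was 92.0, 82.0 and 80.6% of summed Igfbp2 to Igfbp7 FPKM in controls and 88.0, 95.2 and 78.8% in knockdown libraries. The sum of Igfbp2 to Igfbp6 was 76.6, 135 and 143 FPKM in controls and 49.5, 27.7 and 139.7 FPKM in knockdown libraries. Control libraries 2 and 3 and knockdown library 3 held the most of these 5 binding proteins. Igfbp6 was the largest of the 5 in all 6 libraries, at 38.3 to 72.4% of the sum, and Igfbp4 made up 13.4 to 35.6%. Igfbp2 and Igfbp5, direct neighbours in the RefSeq order of GRCr8, had their lowest control value in different libraries. Igfbp1, the neighbour of Igfbp3, was listed at 0 in all 6 libraries.

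By closeness of profile (root mean square difference of centred log2 values over 6 libraries), the gene nearest to Igfbp4 was Tgfb3, a transforming growth factor beta ligand, at 0.18, against a median of 1.36 over all tested genes. Tgfb3 measured 177, 456 and 446 FPKM in controls and 72.9, 35.9 and 324 FPKM in knockdown libraries. AABR07068316.1 (0.25) and Slit3, a secreted guidance ligand (0.29), came next. The nearest to Igfbp7 were Zcchc24 (0.07), Ift57 (0.08) and Smarca2 (0.09), against a median of 0.50. These genes were picked for the smallest distances among all tested genes, so they lie under the median by construction.

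Differences in the rest of the IGF pathway had both signs. Of 53 further genes in 5 lists, 51 were in the table and 46 were tested, with 17 negative and 29 positive differences and a median of 0.07. None passed the limma test at an adjusted p of 0.05, while 6 of 46 reached an unadjusted p of 0.05. Of these, 3 were higher (5.53% of all tested genes) and 3 lower (6.95%), which is close to the background. The count was 1 without control library 2 or control library 3, 9 without knockdown library 3, 2 with the replicate block, 1 with control libraries 2 and 3 averaged and 14 with library quality weights. Igf1r, the signalling receptor, measured 34.8, 44.3 and 42.5 FPKM in controls and 37.6, 35.8 and 72.3 FPKM in knockdown libraries, and was far above its ligands in every library. Its log2 difference was 0.19 (SE 0.29, limma adjusted p = 0.819). The insulin receptor Insr stood at 0.51 (limma adjusted p = 0.482), the adaptor Irs1 at -0.42 (0.489) and the adaptor Irs2 at 0.25 (0.693).

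Among receptors and adaptors, 3 of 11 differences were negative and 1 was lower at an unadjusted p under 0.05. That gene was Grb14, an adaptor that inhibits the insulin receptor kinase. It measured 103, 89.3 and 87.6 FPKM in controls and 42.0, 31.1 and 51.4 FPKM in knockdown libraries, with no overlap. Its log2 difference was -1.18 (SE 0.22, unadjusted p = 0.000902, limma adjusted p = 0.211). Weighting libraries by quality, which called 335 genes in all, gave a limma adjusted p of 0.0290. Every other alternative left Grb14 uncalled, with limma adjusted p from 0.0744 to 0.729.

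In the PI3K-AKT arm, 7 of 19 differences were negative, 3 of 19 genes were higher at an unadjusted p under 0.05 (background 5.53%), and 5 of 19 had knockdown libraries wholly above the controls (background 9.63%). Rictor, a subunit of mTOR complex 2, measured 8.96, 8.27 and 8.35 FPKM in controls and 13.3, 16.8 and 10.4 FPKM in knockdown libraries, a log2 difference of 0.58 (limma adjusted p = 0.351). Foxo3, a transcription factor that AKT restrains, stood at 0.43 (limma adjusted p = 0.371).

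Among the binding protein proteases and their inhibitors, 4 of 7 differences were negative. Pappa2, a pappalysin that cleaves IGFBP3 and IGFBP5, measured 4.63, 5.84 and 6.97 FPKM in controls and 0.316, 0.322 and 4.57 FPKM in knockdown libraries. Its log2 difference was -1.66 (SE 0.57, unadjusted p = 0.0225, limma adjusted p = 0.349), with knockdown library 3 nearest the controls, as for Igfbp4. Among the other IGF-binding and IGF-supply genes, 3 of 7 were negative. Kazald1, an IGFBP-related secreted protein, measured 12.1, 15.4 and 14.6 FPKM in controls and 10.4, 7.40 and 10.01 FPKM in knockdown libraries (log2 difference -0.55, limma adjusted p = 0.351). Both tested IGF2 mRNA-binding proteins had positive differences, with a median of 0.02. Pappa and H19 were not matched by symbol.

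The ac4C data were peak lists with a p-value and no enrichment value, so they show where a peak was called and not how much was modified. The p-value was read as such from its range, and no source used here says whether it is raw or adjusted. The 6 lists held 29998, 29593 and 3479 rows for controls and 3111, 2658 and 2592 for knockdown libraries. In control lists 1 and 2, 26881 and 27673 rows shared one p-value each (0.045 and 0.046). Those rows were set apart, leaving 3117 and 1920. Peak coordinates are given as deposited, counted from 1. The notes name rn6 as the rat build, and peaks with several blocks are given by their ends and covered bases.

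With those rows set apart, 8 of the 9 genes had an ac4C peak in at least 1 list. Igf2 was 1 of these, though it is not among the tested genes, of which 47.6% had one. For Igf1 and Igf2 the only such peak was in control 1, whose input library held 5 and 62 fragments of them. The lists share cells and depth, and abundant genes were more often in them. Of the 78 genes at least as abundant in controls as Igfbp7, 78.2% had one. No such share was taken at the lower levels of the other members. Igfbp4 was the only one of the 9 genes with a peak in all 3 control lists (background 4.29%), in all 3 knockdown lists (4.72%) and so in all 6 (2.09%). Its smallest p per list was 2.5e-25, 5.1e-05 and 1.6e-26 in controls and 0.013, 0.00013 and 1.4e-05 in knockdown libraries. These peaks lay within 597 bases at chr10:86961982-86962578 on the plus strand. They overlapped in part: only 1 base was common to all 6 lists and 118 bases were in 1 list. The p-values come from lists of different depth and were not compared between groups.

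Igfbp7 and Igfbp5 each had a peak in 4 lists, control 2, control 3, knockdown 1 and knockdown 3. For Igfbp7 the peaks shared 150 bases at chr14:33070041-33070190 in those lists, with p-values of 3.2e-43, 1.3e-15, 1.1e-07 and 1e-114. No Igfbp7 peak was listed in control 1 or knockdown 2, although its RNA was highest in control 1. For Igfbp5, the same 2 libraries had the lowest RNA, at 0.904 and 0.230 FPKM. For Igfbp5 the p-values were 5e-21, 0.00085, 0.0024 and 0.0026, and the peaks hardly coincided: 61 bases (chr9:80152874-80152934) were in 2 lists and 901 of 962 covered bases in 1.

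The other genes had scattered peaks. Igf2r had one in control 2 (chr1:48264357-48264477, p-value 1.3e-11) and one in knockdown 2 (chr1:48261746-48262918, 181 covered bases, p-value 6e-06), with no shared base. Igfbp2 had a peak in knockdown 3 (chr9:80144670-80144789, p-value 1.1e-05) and Igfbp3 in knockdown 1 (chr14:87458984-87460075, 179 covered bases, p-value 0.00013). Igf1 (p-value 0.0015) and Igf2 (p-value 0.0072) had a peak in control 1 only, and Igfbp6 had none. The input held 5 Igf1 fragments in control library 1, against 36 and 56 in control libraries 2 and 3, where no Igf1 peak was listed. Presence in single lists of unequal depth gives no difference between groups.

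**Figure D4:**
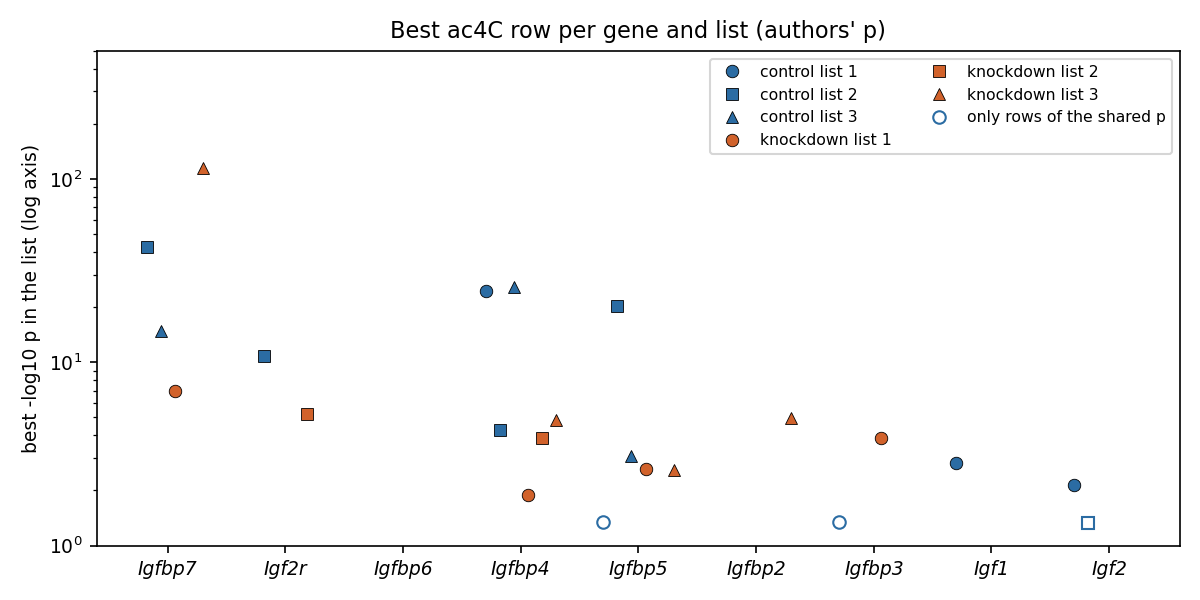
Each gene's smallest ac4C p-value in each of the 6 lists, as −log10 p on a log axis, with filled points for control and knockdown lists and open points where a list held only rows of the shared p-value. Igfbp4 has a filled point from all 6 lists, Igfbp7 and Igfbp5 from 4, and Igfbp6 from none.

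Among 46 tested genes of the other IGF lists, 29 had an ac4C peak in at least 1 list (background 47.6%) and 0 in all 6 (background 2.09%). Grb10 and Igf2bp2 had one in every control list (2 of 46, background 4.29%). Akt1, Kazald1 and Esm1 had one in every knockdown list (3 of 46, background 4.72%). Both counts were close to the background, and lists of unequal depth give no difference between groups. Igf1r had none.

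In the NAT10 RIP, Igf2r was the only one of the 9 genes with a peak. It had 9, 8 and 7 peaks in the 3 lists, which held 2268, 1993 and 1773 peaks over 586, 563 and 548 genes. The other 8 genes had no peak in any list, Igfbp7 with its far higher level included. A peak in all 3 lists was found for 2.68% of tested genes. Length and level moved with this: all 6 genes at least as long and as abundant in controls as Igf2r, itself included, had one in every list (100%). The part of length in the result was not tested. The authors' enrichment of the Igf2r peaks ran from 0.86 to 1.11 on the log2 scale, or 1.81-fold to 2.15-fold. Their median was 0.96, 0.92 and 0.94 in the 3 lists, under the list medians of 1.09, 1.07 and 1.09, at percentiles 18.7, 11.3 and 12.1. So Igf2r was among the genes with many peaks (52, 58 and 56 genes had more) but its peaks were weak for these lists.

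The 24 Igf2r peaks merged to 10 regions over 31732 bases of chromosome 1. Of these, 6 were in all 3 lists, 2 in 2 lists and 2 in 1 list. The region at chr1:48246402-48248578 covered 250 bases, identical in all 3 lists, with log2 enrichments of 1.09, 0.98 and 0.99. The one at chr1:48249515-48249689 had 1.00, 1.03 and 1.11. The 1800 bases under NAT10 RIP peaks shared 0 bases with the 302 bases under ac4C peaks of the same gene. Those ac4C bases came from 1 peak in each of 2 lists. The knockdown 2 peak ended at chr1:48262918 and a RIP region started at chr1:48262991. With RNA fragments of 100 to 200 nt in the ac4C assay, the lack of shared bases cannot show separate sites. Of the 46 other IGF genes tested, 3 had a NAT10 RIP peak in every list (background 2.68%, not matched for length or level). They were Igf1r with 3, 1 and 2 peaks, Pik3r1 with 1, 2 and 3, and the endocytic receptor Lrp1 with 21 in each. The part of length and level was not tested for these genes either. The library made without immunoprecipitation was not used.

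**Figure D5:**
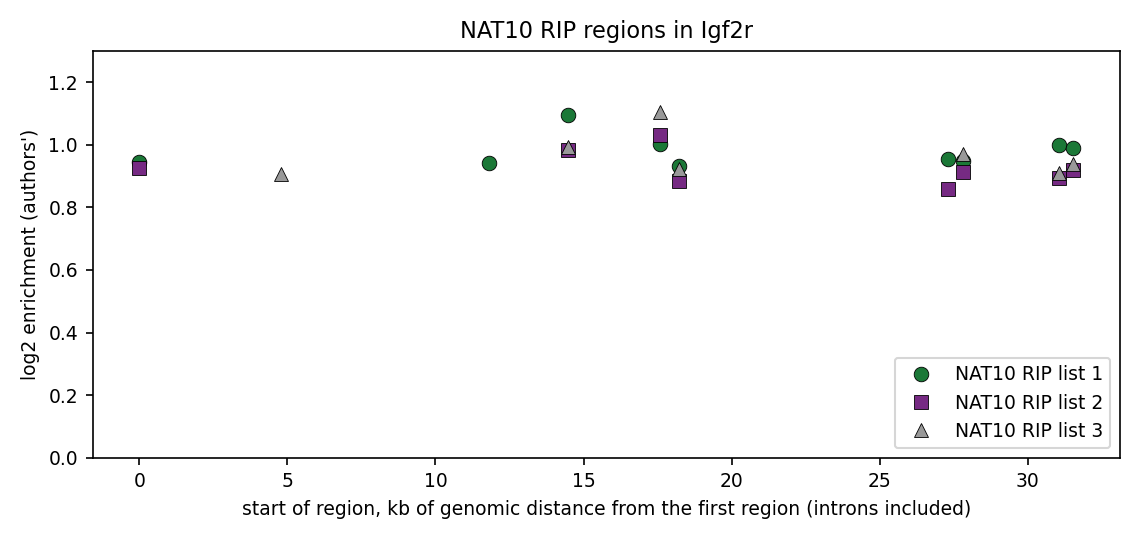
The authors' log2 enrichment of each Igf2r NAT10 RIP region in the 3 lists, by genomic distance in kb from the first region. All values lie between 0.86 and 1.11, and 6 of 10 regions carry a point from every list.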

How the data were processed

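Expression was analysed in 6 input libraries (3 control, 3 knockdown), ac4C in 6 peak lists and NAT10 RIP in 3. The authors deposited expression as FPKM per gene. Tools listed in the submitters' processing notes are HISAT2 2.1.0, cutadapt 2.5, HOMER 4.10.4, DESeq2 and featureCounts 1.6.3. The builds listed there are GRCh38, GRCm38 and rn6, with no step named for any of them. The ac4C lists deposited by the authors hold 1 value per peak in a column headed score, read from its range as a p-value. Per the file headers, the NAT10 RIP lists deposited by the authors give a p-value, its −log10, a peak score and a log2 enrichment; the score and −log10 columns were not used. No source used here names the peak callers or the control of the RIP. Titles gave each sample's group and number.

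FPKM were tested as log2(FPKM + 1) with limma 3.58.1 (mean-variance trend, two-sided, Benjamini-Hochberg) in R 4.3.3 on the 13450 genes averaging 1 FPKM or more, and called at an adjusted p of 0.05. Single genes were also tested with an exact permutation of 3 against 3. The fit was first run on simulated fragments drawn independently, with no deviation shared across the genes of a library. That run therefore cannot show how the fit performs on these data. For all 21401 genes above 0, values matched whole fragments to a relative tolerance of 2e-08, which gave depths of 12065991, 8171176 and 8623541 (controls) and 6417941, 7106004 and 7468528 (knockdown) fragments. Counting limits the precision of low genes. voom on those fragments called 0 genes. Control libraries 2 and 3 were the closest pair (median chi-square per gene 0.755, against 3.58 to 11.7 for other pairs) and were kept as separate samples. The control SDs and SEs therefore count them as independent. With the 2 averaged, 0 genes were called and the median difference of the members was -0.60. Peaks were matched at 1 shared base.

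The members and lists were chosen with earlier results of these data known. All 9 members are named. Of the other IGF genes, those at an unadjusted p under 0.05 are named, with Igf1r, Insr, Irs1 and Irs2 whatever their values; 1 gene that met this rule is not reported here. Likeness names 3 genes each for the member with the largest log2(FPKM + 1) difference and the one with the highest level. Genes named from the peak lists were chosen after their values were seen. Alternatives changed the pseudocount, filter, scaling, block, library weights, test and libraries. Promoter sequences are from RefSeq (GRCr8), a build other than that of the peaks.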

Additional observations from a re-analysis of the deposited data

How the results depend on the processing

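No IGF member passed an adjusted p of 0.05 under any of 15 alternatives per member. With 3 libraries per group, small differences were not detectable, and larger ones also went uncalled in the main fit. Igfbp4 at -1.58 (SE 0.81), Igfbp5 at -1.27 (SE 1.22) and Nat10 at -0.93 (SE 0.19) did not pass there. The lack of a call therefore does not show that a difference was small. Igf1 and Igf2 also rested on low fragment numbers, and Igf2 was not tested in the main fit. Library quality weights (0.559, 3.80 and 3.57 for controls, 1.35, 0.235 and 0.416 for knockdown libraries) called 335 genes against 0, with 4 members at an unadjusted p under 0.05. These weights took Nat10 (-0.97, limma adjusted p = 0.0399, range 0.0399 to 0.797) and Grb14 (-1.06, limma adjusted p = 0.0290, range 0.0290 to 0.729) past the threshold. Leaving out 1 library called 0 to 1 genes. No source used here says whether equal replicate numbers mark paired samples. The deviations of same-numbered libraries correlated at -0.21, -0.28 and 0.18. With 3 libraries per group, and control 1 and knockdown 2 deviating together (0.41), these correlations cannot decide it. With replicate number as a block, 0 genes were called, and 500 genes were higher and 676 lower before adjustment against 744 and 935. Igfbp4 then had an unadjusted limma p of 0.0265 and an adjusted one of 0.554. In all, 12 values turned sign. Igf2r was 0.038 with quantile normalization, 0.21 without control 1, 0.03 without knockdown 1 and 0.044 without control 1 and knockdown 2 together, where Igfbp2 was 0.019. Leaving out 1 library gave Igf2r -0.27 to 0.21 and Igfbp3 -0.85 to 0.76. Igfbp3 was 0.044 at pseudocount 0.1, 0.037 with quantile normalization, 0.21 with voom, 0.46 without control 2, 0.36 without control 3, 0.76 without knockdown 2 and 0.41 with control 2 and 3 averaged. Members with an ac4C peak in all control lists numbered 2 with every row and 1 without the shared-p rows or at p under 0.01, and 2 to 3 leaving out a list. In all knockdown lists they numbered 1, 0 at p under 0.01, and 1 to 3 leaving out a list, with 3 without knockdown 2. Of the Igf2r RIP peaks in list 1, 6 were matched in the other lists, 3 when the overlap had to cover at least 50% of each peak, and 6 to 8 leaving out a list. The cause of each was not tested. The paired removal, the averaging and the leaving out of peak lists were chosen after seeing the data.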
